A study of Mus musculus with 4 samples.

Results

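Integrins and laminins were examined in the mesenchyme of mouse molar tooth germs at embryonic day 13.5. The genes were taken by symbol alone: integrin alpha and beta subunits (symbols beginning Itga or Itgb and ending in a number, a letter or both) and laminin alpha, beta and gamma chains (Lama, Lamb or Lamc with a number). The rule found 38 genes of 22072 gene symbols, of which 27 were integrins and 11 were laminins. Tissue had been cut from frozen head sections by laser capture microdissection and sequenced as 4 libraries, 1 for each genotype and molar. The mutant, Bmp4f/f;Wnt1Cre, carried floxed alleles of the signalling ligand Bmp4 and a Cre recombinase under Wnt1 control, which is active in the neural crest cells that give rise to tooth mesenchyme. The control was Bmp4f/+, with 1 floxed allele and no Cre named in its label, so an effect of the Cre transgene and the loss of Bmp4 cannot be told apart. Both genotypes were of mixed background, and lower (mandibular) and upper (maxillary) molars were collected apart. The series description mentions pooling of 3 control and mutant pairs, so each library stands for a pool and the spread between embryos was not measured.

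Integrins are cell surface receptors made of 1 alpha and 1 beta subunit, and the pairing sets which matrix protein a cell can hold. Laminins are trimers of an alpha, a beta and a gamma chain that build the basement membrane, the thin matrix sheet under epithelia and around blood vessels, nerves and muscle. In the tooth germ such a sheet lies between the dental epithelium and the mesenchyme, and mesenchymal cells meet it and a fibronectin and collagen rich matrix through their integrins.

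The libraries held between about 4820000 and 5550000 reads on annotated transcripts, and levels are given as FPKM (fragments scaled to transcript length and to mapped reads), summed per gene. At this depth 3 reads on a transcript of 2 kb corresponded to between 0.101 and 0.115 FPKM. Bmp4, the deleted gene, had 4.90 and 4.75 FPKM in the mutant lower and upper molar, against 27.2 and 24.8 FPKM in the control lower and upper molar. All 8 listed genes of tooth and crest mesenchyme, among them Msx1 and Pax9, were expressed, with sums between 617 and 701 FPKM. Among epithelial keratins Krt5 lay between 4.98 and 7.75 FPKM and Krt14 between 1.58 and 3.91 FPKM. Krt8 and Krt18 had at most 0.15 and 0.862 FPKM, and the epithelial markers Cdh1 and Epcam at most 0.148 and 1.11 FPKM. Of 9 epithelial markers 4 had a mean of at least 1 FPKM, none was at 0 in all libraries, and Shh was at 0 in 3 of them. The part of epithelial RNA in the captures was not tested.

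The first question was which of the 38 genes the mesenchyme expressed. Counting a gene as expressed when its 4 libraries averaged 1 FPKM or more, 14 of the 38 were expressed, 8 integrins and 6 laminins, and the same threshold was passed by 10502 of the 22072 symbols. The 14 were Itgb1, Itgb5, Itga5, Itgav, Itga9, Itga8, Itga6 and Itga4 among the integrins, and Lamc1, Lama4, Lamb1, Lamb2, Lama2 and Lama1 among the laminins. All 14 were also at or above 1 FPKM in every single library. The threshold fell between Lama1, which averaged 1.51 FPKM, and Itga2, which averaged 0.945 FPKM and so lay close below it. With a mean of at least 0.5 FPKM 19 of the 38 would count as expressed, and with at least 2 FPKM 13 would.

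**Figure D1:**
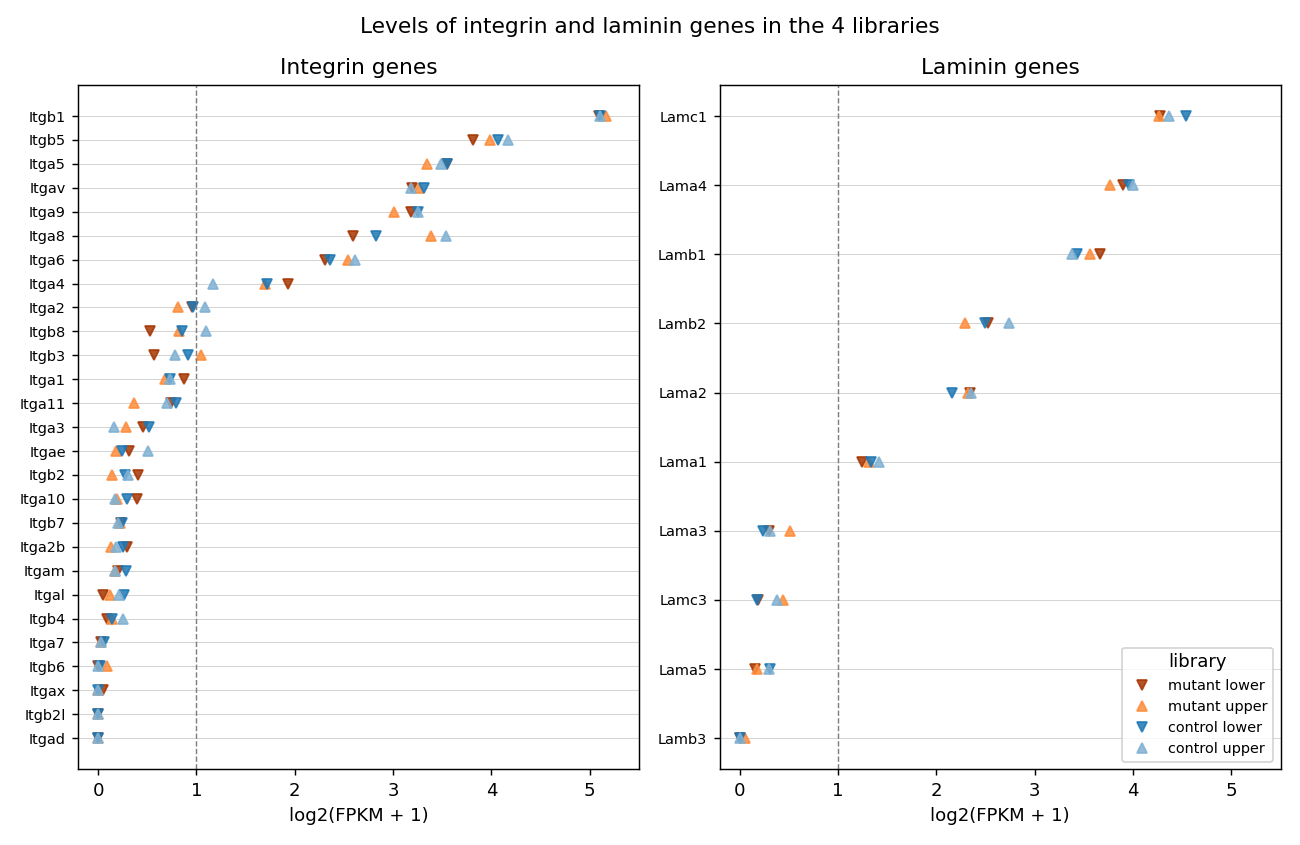
Level of the integrin genes (left) and of the laminin genes named in the text (right) on a log2(FPKM + 1) axis, with 1 symbol per library, brown and orange for the mutant lower and upper molar and dark and light blue for the control lower and upper molar. The dashed line marks 1 FPKM; 14 genes average above it, and Itga8 is the expressed integrin with the widest separation of lower from upper molars.

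Among the beta subunits, Itgb1 led. Itgb1, the partner of most alpha subunits (chromosome 8, 131209554 to 131257479, mm9), had 33.1 and 35.0 FPKM in the mutant lower and upper molar, against 33.4 and 33.5 FPKM in the control lower and upper molar. It was read with between 1824 and 2182 reads per library and had the highest mean of all 38 genes, 33.7 FPKM. Itgb5, which pairs with Itgav in a receptor for vitronectin (chromosome 16, 33829751 to 33949424), had 13.1 and 14.8 FPKM in the mutant lower and upper molar, against 15.8 and 17.0 FPKM in the control lower and upper molar. Vtn, the vitronectin gene, was named after its values were seen and was at 0 FPKM in all 4 libraries. Both control libraries were above both mutant libraries for Itgb5, while Itgb1 stayed within a narrow range in which the genotypes overlapped. Itgb1 made up between 63.3% and 69.3% of the summed beta subunit FPKM.

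The alpha subunits that bind the RGD motif of fibronectin and related proteins were the most abundant alpha class, with a sum between 24.1 and 28.9 FPKM. Itga5, the classical fibronectin receptor subunit (chromosome 15, 103174718 to 103197179), had 10.7 and 9.17 FPKM in the mutant lower and upper molar, against 10.7 and 10.2 FPKM in the control lower and upper molar. Itgav, which pairs with several beta subunits (chromosome 2, 83564554 to 83647073), had 8.13 and 8.59 FPKM in the mutant lower and upper molar, against 8.96 and 8.05 FPKM in the control lower and upper molar. Itga8, a mesenchymal receptor subunit best known for binding nephronectin in the developing kidney (chromosome 2, 12028287 to 12223547), had 5.05 and 9.42 FPKM in the mutant lower and upper molar, against 6.09 and 10.6 FPKM in the control lower and upper molar. Itga8 was low in both lower molars and high in both upper molars, whichever the genotype. Itga5 showed the opposite order with a small gap, and the Itgav libraries overlapped in both comparisons.

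Itga9 and Itga4 form a second alpha class, which binds ligands such as tenascin, Vcam1 and fibronectin splice forms. Itga9 (chromosome 9, 118515827 to 118810121) had 8.08 and 7.06 FPKM in the mutant lower and upper molar, against 8.56 and 8.55 FPKM in the control lower and upper molar. Itga4 (chromosome 2, 79095583 to 79173271) had 2.81 and 2.24 FPKM in the mutant lower and upper molar, against 2.29 and 1.24 FPKM in the control lower and upper molar. The control upper molar was the low library for Itga4, with about 160 reads against between 294 and 389 in the others. Of the laminin-binding alpha subunits Itga6 alone was expressed (chromosome 2, 71625140 to 71694815). It had 3.96 and 4.81 FPKM in the mutant lower and upper molar, against 4.14 and 5.11 FPKM in the control lower and upper molar, and was lower in both lower molars. The summed FPKM of the 12 alpha subunits able to pair with Itgb1 was between 1.24 and 1.38 times that of Itgb1.

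The expressed laminin chains covered all 3 chain types. Lama4, the alpha chain of vessel walls and of mesenchyme (chromosome 10, 38685321 to 38829994), had 13.9 and 12.6 FPKM in the mutant lower and upper molar, against 14.5 and 15 FPKM in the control lower and upper molar. Lama2, the alpha chain of muscle and peripheral nerve (chromosome 10, 26701092 to 27336748), had 4.07 and 4.0 FPKM in the mutant lower and upper molar, against 3.47 and 4.09 FPKM in the control lower and upper molar. Lama1, the alpha chain of early embryonic basement membranes (chromosome 17, 68046605 to 68171985), had 1.37 and 1.48 FPKM in the mutant lower and upper molar, against 1.52 and 1.67 FPKM in the control lower and upper molar. Lama4 therefore made up between 67.5% and 72.8% of the summed alpha chain FPKM, and the order Lama4, Lama2, Lama1 held in all 4 libraries.

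Lamb1, the widely used beta chain (chromosome 12, 31950159 to 32014504), had 11.7 and 10.8 FPKM in the mutant lower and upper molar, against 9.80 and 9.43 FPKM in the control lower and upper molar. Both mutant libraries were above both control libraries for Lamb1. Lamb2, the beta chain of neuromuscular and kidney basement membranes (chromosome 9, 108382193 to 108392861), had 4.77 and 3.90 FPKM in the mutant lower and upper molar, against 4.62 and 5.69 FPKM in the control lower and upper molar. Lamc1, the gamma chain shared by most laminins (chromosome 1, 155066052 to 155179916), had 18.3 and 18.2 FPKM in the mutant lower and upper molar, against 22.3 and 19.6 FPKM in the control lower and upper molar. Lamc1 made up between 97.4% and 99.1% of the summed gamma chain FPKM, and both of its mutant libraries were below both control libraries. Chain sums were of similar size, between 18.6 and 21.2 FPKM for alpha, 14.4 and 16.5 for beta and 18.6 and 22.5 for gamma.

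In the order of mean level, Itgb1 was followed by Lamc1, then Itgb5, Lama4, Lamb1, Itga5, Itgav, Itga9, Itga8, Lamb2, Itga6, Lama2, Itga4 and Lama1. The ranges over the 4 libraries did not overlap between Itgb1 and Lamc1, Lamc1 and Itgb5, Lama4 and Lamb1, Itga5 and Itgav, or Lama2 and Itga4. All other neighbours in this order overlapped and were not separated at this spread. Itga8 varied most, with 7.78 ± 2.63 FPKM, and Itgb1 had 33.7 ± 0.875 FPKM (SD over 4 libraries of 4 different groups).

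**Figure D2:**
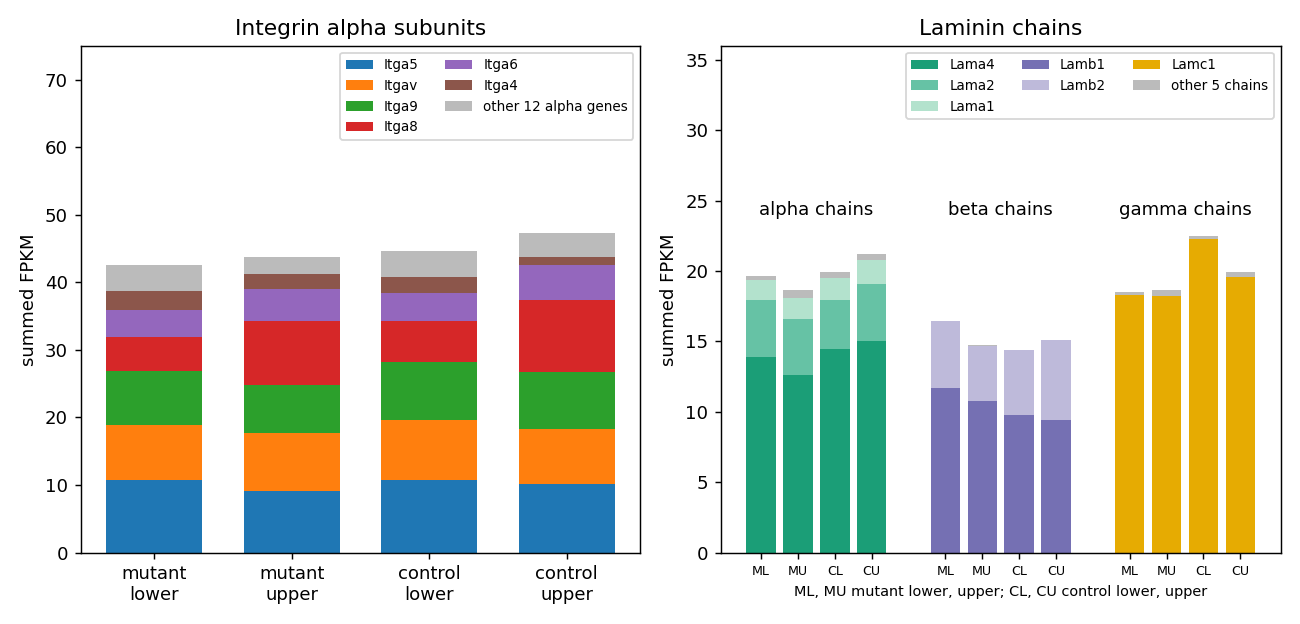
Summed FPKM of the integrin alpha subunits (left) and of the laminin alpha, beta and gamma chains (right) in each library, with bars divided by gene and starting at 0. Itga8 takes 11.9% of the alpha sum in the mutant lower molar and 21.5% in the mutant upper molar, and Lama4, Lamb1 and Lamc1 are the largest part of each laminin chain type in every library.

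The other 24 genes had means under 1 FPKM, 19 of them under 0.3 FPKM. Nearest to the threshold were Itga2 and Itga1, both collagen receptor subunits, Itgb3 and Itgb8, which pair with Itgav, and Itga11, another collagen receptor subunit. Itga2, Itgb3 and Itgb8 each reached 1 FPKM in 1 library, with highest values of 1.13, 1.06 and 1.14 FPKM. Itga1 lay between 0.605 and 0.836 FPKM and Itga11 between 0.289 and 0.733 FPKM. Itga1 shares its locus with Pelo, at a mean of 2.35 FPKM, and the strand setting of the counting was not given. The collagen-binding class of 4 genes, with Itga10 as its last member at up to 0.312 FPKM, thus summed to between 1.80 and 2.75 FPKM.

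The subunits and chains of epithelial basement membranes among the 24 genes with means under 1 FPKM were detected at low levels. Those named here were all under 0.5 FPKM. Itga6, the partner of Itgb4, and Lama1 were expressed, as given above. Itgb4, the hemidesmosome subunit that pairs with Itga6, had at most 0.189 FPKM, and its locus overlaps Galk1, at a mean of 11.8 FPKM. Lamb3 and Lama3, chains of the skin type laminin, had at most 0.0381 and 0.429 FPKM. Itga3, an epithelial laminin receptor subunit, and Itgb6, an epithelial partner of Itgav, had at most 0.435 and 0.0664 FPKM. Lama5, the broad alpha chain of mature basement membranes, lay between 0.116 and 0.242 FPKM, and Lamc3 between 0.130 and 0.355 FPKM. Itgb4 was thus at most 0.189 FPKM in the same libraries in which Krt5 was at least 4.98 FPKM. The epithelial markers Krt8 and Cdh1 were as low there as Itgb4, at most 0.15 and 0.148 FPKM.

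Integrins of blood cells were also low. The leukocyte alpha subunits Itgal, Itgam and Itgae had at most 0.201, 0.216 and 0.425 FPKM, and Itgae shares its locus with Gsg2, at a mean of 3.71 FPKM. Itgax had 2 reads in 1 library, and Itgad was listed at 0 in all 4, as was the beta subunit gene Itgb2l. The leukocyte beta subunits Itgb2 and Itgb7 had at most 0.326 and 0.183 FPKM. The leukocyte marker Ptprc lay between 0.0960 and 0.225 FPKM in the same libraries. The 8 listed macrophage and leukocyte markers, Ptprc among them, summed to between 5.2 and 7.41 FPKM. Of these 8, 2 had a mean of at least 1 FPKM, Cd68 (1.08 to 1.55 FPKM) and Tyrobp (1.78 to 3.38 FPKM). The 5 listed erythroid markers summed to between 785 and 925 FPKM. The part of blood cell RNA in the captures was not tested. The platelet subunit Itga2b had at most 0.226 FPKM and the muscle subunit Itga7 at most 0.0422 FPKM, which was 2 reads.

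Of the 38 genes 7 had more than 1 RefSeq transcript in the tables, and 2 of these were expressed. For Itgb5 nearly all FPKM was placed on the transcript of 3282 bases, between 13.1 and 17.0 FPKM, and the transcript of 3253 bases had at most 1.65e-05 FPKM. For Itga9 the FPKM was shared between the long transcript of 7001 bases and a shorter one of 5180 bases. The long one had 3.67 and 2.75 FPKM in the mutant lower and upper molar, against 3.15 and 4.30 FPKM in the control lower and upper molar. The shorter one had 4.41 and 4.31 FPKM in the mutant lower and upper molar, against 5.4 and 4.25 FPKM in the control lower and upper molar. No transcript of the 38 genes had a failed estimate. The split between transcripts is an estimate of the quantification program from shared reads, and it has no replicate.

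The second question was whether loss of Bmp4 from the mesenchyme changed these genes. None of the 14 expressed integrins and laminins passed the test for genotype, and most differences were small. The genotype effect, taken over both molars on the log2(FPKM + 1) scale with limma, lay between -0.22 and 0.37. Over all 10502 genes tested, limma called 84 at an adjusted p under 0.05, 36 higher and 48 lower in the mutant, which is 0.800% (0.343% higher, 0.457% lower). Only Itga4 of the 14 had an unadjusted limma p under 0.05, where 13.2% of all genes tested did. Adjusted p-values of the 14 lay between 0.355 and 0.958. With 1 residual degree of freedom, these p-values weigh a difference against how far the molars disagreed, pooled over genes of like level, and not against the spread between embryos. In such bulk samples fewer cells of a type and less RNA per cell cannot be told apart.

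Itga4 had the largest genotype effect of the 14, 0.37 ± 0.14 higher in the mutant (log2, SE, limma adjusted p = 0.355). Its excess in the mutant was 0.21 in the lower and 0.53 in the upper molar, and the 2 genotypes overlapped. By reads alone its mutant to control ratio was 1.23 in the lower molar (95% interval 1.05 to 1.42) and 1.80 in the upper molar (1.48 to 2.18). These intervals come from approximate reads by the Clopper-Pearson method and cover counting error alone, since reads of amplified cDNA are not separate molecules. Lamb1 was 0.21 ± 0.11 higher in the mutant (log2, SE, limma adjusted p = 0.469), by 0.23 in the lower and 0.18 in the upper molar.

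Lower in the mutant in both molars were 8 of the 14 genes, where 32.4% of all genes tested were, and higher in both were 2 of the 14, against 27.2%. The 8 were Itgb5, Itga8, Itga9, Itga5, Itga6, Lamc1, Lama4 and Lama1, and none passed the test. After rescaling by median ratios 7 of them were still lower in both molars and Itga5 was not, where 29.8% of all genes tested were lower. Itgb5 was lower by 0.22 ± 0.11 and Lamc1 by 0.19 ± 0.11 (log2, SE, limma adjusted p = 0.45 and 0.523). The Lamc1 difference was 0.27 in the lower and 0.10 in the upper molar, and that of Itgb5 was 0.24 and 0.19. Itgb1 had a genotype effect of 0.02 ± 0.10 with a 95% limma interval of -0.22 to 0.27. Across the 14 genes the limma intervals reached from -0.55, for Lamb2, to 0.71, for Itga4. The mutant libraries did not overlap the control libraries for 6 of the 14 (Itga9, Itgb5, Lama1, Lama4, Lamb1 and Lamc1), where 41.5% of all genes tested did not overlap.

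The median genotype effect of the 14 was -0.08, and that of all genes tested was -0.02. Within a molar none of the 14 reached a 2-fold difference between genotypes on the log2(FPKM + 1) scale. Of all genes tested 1.10% did in the lower and 1.01% in the upper molar. There was 1 library per genotype within a molar, so these differences have no replicate check. The largest were Itga4, above, and Lamb2, which was 0.45 lower in the mutant upper molar and 0.04 higher in the mutant lower molar.

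**Figure D3:**
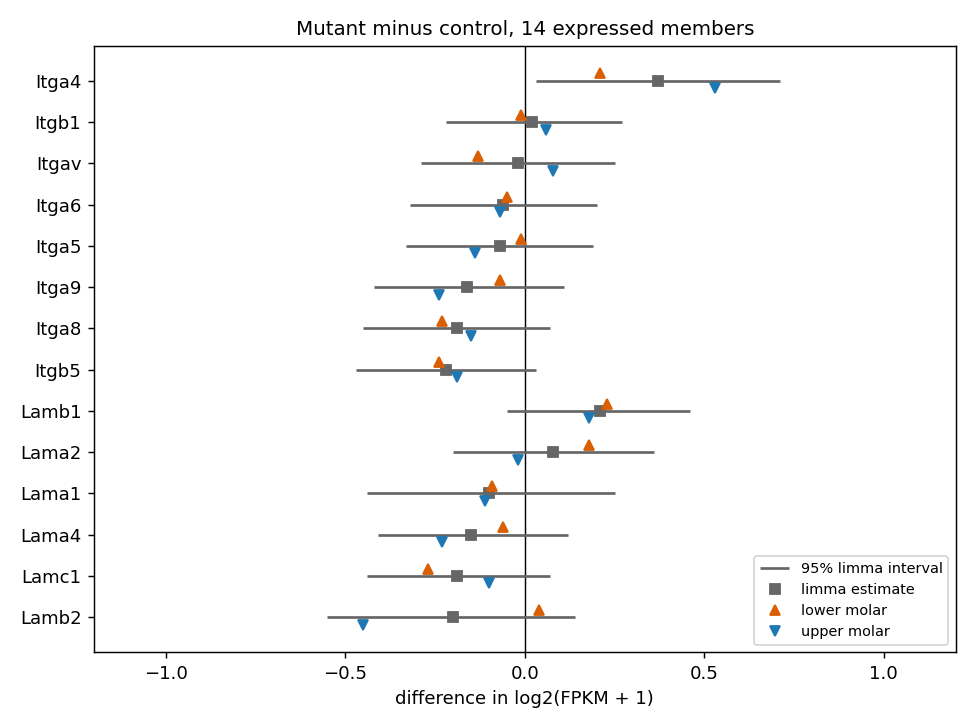
Difference in log2(FPKM + 1), mutant minus control, for the 14 expressed genes. Triangles show the lower molar (orange) and the upper molar (blue), with 1 library per genotype; squares and bars show the limma estimate and its 95% interval. All 14 estimates lie between -0.22 and 0.37, and the interval of every gene but Itga4 includes 0.

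Of the 24 weakly expressed genes, none entered this test, and several were picked here after their values were seen. Lama5 had about 19 and 22 reads in the mutant lower and upper molar, against 36 and 35 in the control lower and upper molar. Its mutant to control FPKM ratio was 0.480 in the lower molar (counting interval 0.264 to 0.871) and 0.545 in the upper molar (0.309 to 0.969). Itgb8 was lower in the mutant in both molars as well, at 0.446 and 0.769 FPKM in the mutant lower and upper molar, against 0.801 and 1.14 FPKM in the control lower and upper molar. Its mutant to control ratio was 0.556 in the lower molar (0.293 to 0.996) and 0.672 in the upper molar (0.418 to 1.06). The Itgb3 ratio of mutant to control was 0.545 in the lower molar (0.352 to 0.808) and 1.47 in the upper molar (1.05 to 2.11). The platelet gene Pf4 had 0.662 and 2.19 FPKM in the mutant lower and upper molar, against 0.591 and 1.06 FPKM in the control lower and upper molar. The platelet marker list of 5 genes summed to 1.78 and 3.81 FPKM in the mutant lower and upper molar, against 1.78 and 2.83 FPKM in the control lower and upper molar. Without Pf4 the other 4 summed to 1.11 and 1.61 FPKM in the mutant lower and upper molar, against 1.19 and 1.78 FPKM in the control lower and upper molar. None of the 5 was at 0 in all libraries. The platelet subunit Itga2b had 0.226 and 0.0976 FPKM in the mutant lower and upper molar, against 0.188 and 0.134 FPKM in the control. It rested on between 5 and 11 reads per library. The part of platelet RNA in the Itgb3 values was not tested.

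The third question was whether lower and upper molars differed in these genes. Itga8 was lower in the lower molar in both genotypes, and it was the only one of the 14 to pass the test. Its lower to upper FPKM ratio was 0.537 in the mutant (counting interval 0.477 to 0.607) and 0.576 in the control (0.514 to 0.648). The lower molar libraries had about 412 and 459 reads in mutant and control, against 809 and 801 in the upper molar libraries. Over both genotypes Itga8 was lower in the lower molar by 0.75 ± 0.11 (log2, SE, limma adjusted p = 0.0425). limma called 35 of the 10502 genes lower in the lower molar, which is 0.333%, and 76 in both directions, which is 0.724%.

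The Itga8 call was close to its threshold and did not hold under every processing. Over 11 alternatives its effect stayed between -0.86 and -0.63, with adjusted limma p-values from 0.00275 to 1. It was no longer called after rescaling by median ratios (limma adjusted p = 0.0796), without an intensity trend (0.0757), without a filter on low values (0.525), without a term for the genotype (0.287) or with any of the 4 libraries left out (0.381 to 1). The list of 9 epithelial markers summed to 20.8 and 20.9 FPKM in the mutant and control lower molars, against 23.0 and 20.4 FPKM in the upper molars. Krt14 had 3.81 and 3.91 FPKM in the mutant and control lower molars, against 3.21 and 1.58 FPKM in the upper molars. The part of epithelial RNA in the Itga8 difference was not tested.

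The other integrins and laminins did not pass the test between molars. Itga4 was higher in the lower molar by 0.40 ± 0.14 (log2, SE, limma adjusted p = 0.413), by 0.24 in the mutant and 0.55 in the control. Itga6 was lower in the lower molar by 0.24 ± 0.11 (log2, SE, limma adjusted p = 0.535), by 0.23 in the mutant and 0.25 in the control. The unadjusted limma p was under 0.05 for Itga8 and Itga4, 2 of 14, where 10.2% of all genes tested were. Lower and upper molar libraries did not overlap for 5 of the 14 (Itga8, Itga4, Itga5, Itga6 and Itgb1), where 33.4% of all genes tested did not overlap. The 6 laminin effects lay between -0.08 and 0.09. Of the 14 genes, 5 were higher in the lower molar in both genotypes and 5 were lower in both, where 20.8% and 35.0% of all genes tested were. The median molar effect was 0.01 over the 14 genes and -0.04 over all genes tested. No member reached a 2-fold difference between molars on this scale, where 1.28% of all genes did in the mutant and 0.971% in the control.

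**Figure D4:**
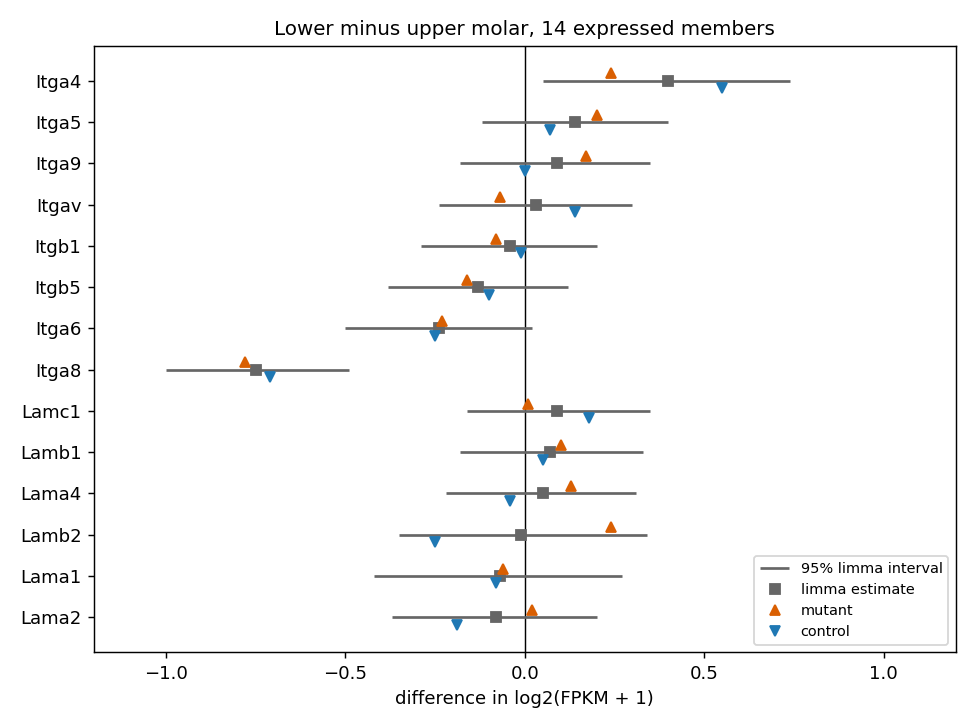
Difference in log2(FPKM + 1), lower minus upper molar, for the 14 expressed genes. Triangles show the mutant (orange) and the control (blue), with 1 library per molar; squares and bars show the limma estimate and its 95% interval. Itga8 stands at -0.75, below the other 13 genes, with mutant and control values of -0.78 and -0.71.

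In the weakly expressed group, Lamc3 had about 11 and 10 reads in the mutant and control lower molars, against 31 and 23 in the upper molars. Its lower to upper FPKM ratio was 0.378 in the mutant (counting interval 0.170 to 0.766) and 0.435 in the control (0.186 to 0.957). Itga3 was higher in the lower molars, at 0.373 and 0.435 FPKM in mutant and control, against 0.220 and 0.122 FPKM in the upper molars. Its lower to upper ratio was 1.69 in the mutant, on about 25 against 16 reads, with a counting interval that included 1 (0.847 to 3.31). In the control the ratio was 3.57 (1.57 to 8.95), on about 28 against 8 reads. Both were chosen after their values were seen.

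The same comparisons were made for genes that work with these receptors and chains. Basement membrane partners, the proteins that join laminin in the same sheet, were 19 listed and 14 tested. limma called 0 of the 14 for genotype and 0 for molar, with 4 and 2 at an unadjusted p under 0.05. Of all genes tested 0.800% and 0.724% were called and 13.2% and 10.2% had such an unadjusted p. In both molars 9 of the 14 were below the control, where 32.4% of all genes tested were (8 of 14 and 29.8% after rescaling), and the median genotype effect was -0.16. Nid1, which links laminin to collagen IV, had 24.2 and 24.9 FPKM in the mutant lower and upper molar, against 30.3 and 31.5 FPKM in the control lower and upper molar (limma adjusted p = 0.279). Col18a1 differed by -0.34, Col15a1 by -0.32 and Col4a2 by -0.30, also short of the threshold (limma adjusted p = 0.309, 0.322 and 0.33).

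Values of vessel markers are given beside this list. The 8 endothelial markers, all expressed, summed to 39.8 and 34.7 FPKM in the mutant lower and upper molar, against 44.5 and 45.5 FPKM in the control lower and upper molar. Of these 8, 4 were below the control in both molars and 0 above it in both, where 32.4% and 27.2% of all genes tested were. For genotype limma called 0 of the 8, with 1 at an unadjusted p under 0.05, where 0.800% and 13.2% of all genes tested were. The 7 pericyte and smooth muscle markers, 4 of them expressed and none at 0 in all libraries, summed to 30.6 and 34.2 FPKM in the mutant lower and upper molar, against 47.2 and 50.9 FPKM in the control lower and upper molar. Among them Rgs5 was lower in the mutant (limma adjusted p = 0.0113), at 9.48 and 9.03 FPKM in the mutant lower and upper molar, against 25 and 31.8 FPKM in the control lower and upper molar. That sum was set by Rgs5: without it the other 6 markers summed to 21.1 and 25.2 FPKM in the mutant lower and upper molar, against 22.2 and 19.0 FPKM in the control lower and upper molar. limma called 0 of the 3 tested among them, with 0 at an unadjusted p under 0.05, against the same 0.800% and 13.2%. Most of the sum without Rgs5 was Pdgfrb, at 16.1 and 20.2 FPKM in the mutant lower and upper molar. Its control values were 15.6 and 14.1 FPKM. Kcnj8 fell like Rgs5, to 0.196 and 0.0619 FPKM in the mutant lower and upper molar, against 1.29 and 0.391 FPKM in the control. Tagln fell to 0.317 and 0.201 FPKM, against 0.755 and 0.344 FPKM in the control. Cspg4 was also below its control in each molar, whereas Myh11, Acta2 and Pdgfrb were not. Kcnj8, Tagln and Myh11 were not tested. The part of vessel cells in the Lama4 and basement membrane values was not tested.

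Between molars, Sparc, a collagen-binding matrix protein, had the largest difference of the basement membrane list, 0.75 ± 0.13 higher in the lower molar (log2, SE, limma adjusted p = 0.0817). Npnt encodes nephronectin, the ligand of Itga8. It had 7.63 and 7.70 FPKM in the mutant and control lower molars, against 4.95 and 5.93 FPKM in the upper molars, a difference of 0.43 ± 0.11 (log2, SE, limma adjusted p = 0.239). Npnt was thus higher in the lower molar libraries in which Itga8 was lower, without passing the test.

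Of 22 other integrin ligands listed, 16 were tested. limma called 1 of them, in the comparison of molars, where 0.724% of all genes tested were called. Thbs1, the matrix glycoprotein thrombospondin, had 9.81 and 6.77 FPKM in the mutant and control lower molars, against 4.35 and 2.95 FPKM in the upper molars. It rose by 1.0 ± 0.11 in the lower molar (log2, SE, limma adjusted p = 0.0145), and the call was lost in 6 of 11 alternatives, with adjusted limma p-values from 0.00122 to 1. For genotype limma called 0 of the 16, where 0.800% of all genes tested were called. At an unadjusted limma p under 0.05 were 9 for genotype and 8 for molar, where 13.2% and 10.2% of all genes tested were. The largest genotype effects were those of Postn (0.65), Vcam1 (-0.64), Cyr61 (0.55) and Fbn1 (-0.47), with adjusted limma p-values of 0.0604, 0.211, 0.138 and 0.148. Vcam1, a ligand of Itga4, had 2.22 and 5.13 FPKM in the mutant lower and upper molar, against 5.41 and 6.46 FPKM in the control lower and upper molar. Postn, a ligand of Itgav receptors, was also 0.66 higher in the lower molar (limma adjusted p = 0.0601). Fn1, the fibronectin gene and the ligand of Itga5, was named after its values were seen, and had 35.6 and 34.6 FPKM in the mutant and control lower molars, against 55.3 and 46.9 FPKM in the upper molars (limma adjusted p = 0.126).

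The adhesion complex, which ties integrin tails to actin, had 22 tested genes of 30 listed. limma called 1 of the 22 for genotype and 0 for molar, with 3 and 1 at an unadjusted p under 0.05, where 13.2% and 10.2% of all genes tested were. Parvb, an actin-binding partner of the integrin-linked kinase, fell to 1.95 and 3.16 FPKM in the mutant lower and upper molar, against 4.57 and 5.99 FPKM in the control lower and upper molar. The difference was -0.83 ± 0.12 (log2, SE, limma adjusted p = 0.0378), and the call was lost in 8 of 10 alternatives, with adjusted limma p-values from 0.0145 to 0.972 and effects from -1.08 to -0.59. Its paralog Parva had 15.1 and 18.8 FPKM in the mutant lower and upper molar, against 16.0 and 16.7 FPKM in the control lower and upper molar. Vcl (vinculin), an actin linker, was lower in the mutant by 0.39 and Zyx (zyxin) higher by 0.34, neither past the test (limma adjusted p = 0.209 and 0.334). Tln1, the talin that binds integrin tails, and Ilk, the integrin-linked kinase, had genotype effects of -0.11 and 0.22 (limma adjusted p = 0.719 and 0.442), and like Parva they were named after their values were seen. Between molars the largest effects were those of Parvb (-0.41) and Pxn (0.26), with adjusted limma p-values of 0.277 and 0.535.

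All 11 listed genes of other laminin receptors and of dystroglycan glycosylation were tested. limma called 0 for genotype and 0 for molar, where 0.800% and 0.724% of all genes tested were called. At an unadjusted limma p under 0.05 were 2 and 1 (13.2% and 10.2% of all genes tested). Dag1, the dystroglycan gene, was named after its values were seen, and had 20.0 and 21.8 FPKM in the mutant lower and upper molar, against 20.6 and 20.7 FPKM in the control lower and upper molar. Large, an enzyme that builds the laminin-binding sugar of dystroglycan, had 5.25 and 8.59 FPKM in the mutant lower and upper molar, against 7.56 and 11.8 FPKM in the control lower and upper molar. It differed by -0.43 ± 0.11 between genotypes and by -0.60 ± 0.11 between molars (log2, SE, limma adjusted p = 0.171 and 0.0852). Pomgnt1 was higher in the mutant by 0.22 and Bcam lower by 0.20, neither past the test (limma adjusted p = 0.492 and 0.573).

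**Figure D5:**
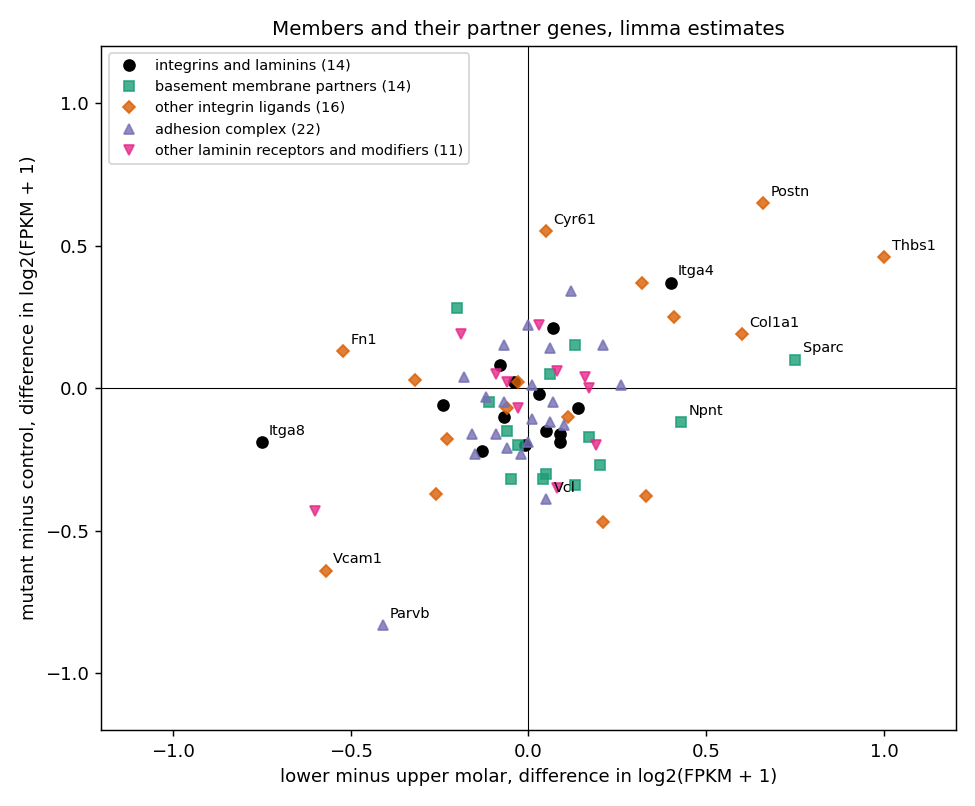
limma estimates on the log2(FPKM + 1) scale for the 14 expressed integrins and laminins and for 63 tested genes of the 4 partner lists, with the molar effect (lower minus upper) on the x axis and the genotype effect (mutant minus control) on the y axis. Itga8 lies at the left at -0.75, Thbs1 at the right at 1.0 and Parvb at the bottom at -0.83; these 3 passed the test.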

How the data were processed

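Total RNA of laser-captured mesenchyme was amplified to cDNA (NuGEN Ovation RNA-Seq v2) and made into libraries (Illumina Nextera), per the labels' protocols. The submitters' processing notes name TopHat 1.4.1, Bowtie 0.12.7 and mm9. The tables, as deposited, list FPKM, computed by the authors, for 28107 RefSeq transcripts, and the authors' coverage signal per transcript, per the file headers. Quantification version, strand setting and treatment of shared reads are not given in the sources used here.

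FPKM was summed per gene symbol. Approximate reads were the deposited coverage times length, divided by 44.2 bases per read, a value taken from single-read genes. Whole reads were not recoverable, and no count test was run. Differences were taken on log2(FPKM + 1), a pseudocount of 1 that understates the change of weak genes, for the 10502 genes averaging 1 FPKM or more. limma 3.58.1 in R 4.3.3 was fitted to all 4 libraries with genotype and molar as terms and an intensity trend, two-sided, with Benjamini-Hochberg adjustment over all genes tested and a threshold of 0.05. It had 1 residual and 5.77 prior degrees of freedom. The fit was also run on simulated data whose noise was drawn from the residual spread of these libraries. That run held no spread between embryos, so it does not bear on whether the calls would hold in other embryos. Within a molar or genotype there was no test, and counts past 2-fold are given instead.

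The genes, lists and tests were chosen with earlier results of these data known. The members are named except for a result that is not reported here; the same holds for a few genes of the lists. Of each partner list the called genes, up to 4 genes with the largest genotype effect and up to 2 with the largest molar effect are given, and others are marked as chosen after their values were seen. Coordinates are on mm9, counted from 1. Alternatives covered the pseudocount, filter, scaling, trend, short transcripts, model terms and each library left out. Protein sequences were not used here.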

Additional observations from a re-analysis of the deposited data

Results flagged for a closer look

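With 1 library per group, 3 of the 14 expressed genes (Lamb2, Itgav and Lama2) had genotype differences of opposite direction in the 2 molars. These 3 also had molar differences of opposite direction in the 2 genotypes. Itgb1 had this for genotype alone and Lama4 for molar alone. None of these differences was tested, since the fit has no degree of freedom left for it. Lamb2 was 0.04 higher in the mutant lower molar and 0.45 lower in the mutant upper molar, a gap of 0.49, and the molar difference was 0.24 in the mutant and -0.25 in the control. Itgav was 0.13 lower in the mutant lower molar and 0.08 higher in the mutant upper molar, a gap of -0.21, with molar differences of -0.07 in the mutant and 0.14 in the control. Lama2 was 0.18 higher in the mutant lower molar and 0.02 lower in the mutant upper molar, a gap of 0.21, with molar differences of 0.02 and -0.19. Itgb1 differed by -0.01 and 0.06 between genotypes in the lower and upper molar, a gap of -0.07. Lama4 differed between molars by 0.13 in the mutant and -0.04 in the control, a gap of 0.18.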

How the results depend on the processing

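No integrin or laminin was called for genotype by limma under any of the 11 alternatives, with between 0 and 3 members at an unadjusted p under 0.05. For molar, 1 member (Itga8) was called with a pseudocount of 0.1 FPKM, for genes averaging 5 FPKM or more and without transcripts under 300 bases. limma called 0 members without a filter, after rescaling, without a trend, with the molar as the only term, and with each library left out (0 to 0), with 1 to 4 at an unadjusted p under 0.05. Over all genes, the 84 genotype calls became 0 without a filter (1590 at an unadjusted limma p under 0.05), 146 at a mean of at least 5 FPKM, 12 after rescaling, 38 without a trend, 133 without transcripts under 300 bases, 7 with genotype as the only term and between 5 and 18 with 1 library left out. The 76 molar calls became 0 without a filter (1402 at an unadjusted limma p under 0.05), 127 at a mean of at least 5 FPKM, 29 after rescaling, 139 without transcripts under 300 bases, 12 with the molar as the only term, and between 0 and 21 with 1 library left out. The 0 was without the mutant lower molar, where 407 genes had an unadjusted limma p under 0.05. No paired analysis was possible because each group has 1 library and the labels number no replicates. The cause of these shifts was not tested. Leaving out a library also removed the other term from the fit, and the lone library was assumed to vary like the others.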

Other observations

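Itgbl1 encodes an integrin beta-like secreted protein and falls outside the symbol rule for integrin subunits; it was chosen after its values were seen. Itgbl1 had 7.34 and 5.14 FPKM in the mutant lower and upper molar, against 3.75 and 2.50 FPKM in the control lower and upper molar. Both mutant libraries were above both control libraries. The genotype difference was 0.81 ± 0.11 (log2 of FPKM + 1, SE, limma adjusted p = 0.035), 0.81 in each molar. The call was lost in 8 of 10 alternatives, and over all 10 the effect lay between 0.59 and 1.03, with adjusted limma p-values from 0.0136 to 0.972. Its molar difference was 0.44 (limma adjusted p = 0.21).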
